A study of Homo sapiens with 10 samples.

Results

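FOXM1 is a forkhead transcription factor of dividing cells, and SKP2, CKS1B, AURKB, PLK1, CENPF, CCNB1 and CDC25B are genes long described as its direct targets. These 8 genes were chosen as a set with earlier results of these data known. Each was represented by its probe set annotated to that 1 symbol, the brightest one if there were several. A probe set is the group of probes that the array summarises into 1 value per gene. CKS1B has no probe set under this rule and was not analysed here, which left 7 of 8 genes, among 14232 genes on single-symbol probe sets and 21980 probe sets in all. The cells were U2OS, a human osteosarcoma line that retains RB, and all of them grew for 30 h from 25% density in medium with 10% serum. The treated group then received PD0332991 (palbociclib, an inhibitor of the kinases CDK4 and CDK6) for 4 h, and the control group received its solvent DMSO for 4 h. Its labelled concentration is 1 mM, far above the micromolar doses usual for this compound in culture, and whether that unit is right was not tested. Each group has 5 arrays, labelled as biological replicates of this 1 line. The labels do not say what each replicate shares with the others, so the p-values measure the spread between these arrays.

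Cyclin D-dependent kinases phosphorylate FOXM1 as well as RB, and phosphorylation activates and stabilises the FOXM1 protein. FOXM1 reaches most of its late cell cycle targets together with the MuvB complex and B-MYB, at a promoter sequence called the cell cycle genes homology region (CHR), often beside CCAAT boxes bound by NF-Y. Genes of the G1/S transition are instead driven mainly by E2F factors, which RB holds back until cyclin D- and cyclin E-dependent kinases release them. The arrays measure mRNA, so they bear on FOXM1 transcript and on the transcripts of its targets, and not on FOXM1 protein or its phosphorylation.

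The stretches of 160 bases that end just before the annotated start site are shown for 4 targets, as examples of targets with different motif content; SKP2 is among them as the target with the smallest p for treatment. They come from RefSeq (GRCh38.p14) and are printed 5′ to 3′ along the gene. Capitals mark matches, on either strand, to TTTGAA (the CHR), to CCAAT, to TAAACA (a forkhead site), or to an E2F core written as TTCCCGC or as TTCGCGC, as TTGGCGC or as TTGCCGC. The variant TTCGAA of the CHR was searched too.
SKP2 (chr5:36151951-36152110, plus strand): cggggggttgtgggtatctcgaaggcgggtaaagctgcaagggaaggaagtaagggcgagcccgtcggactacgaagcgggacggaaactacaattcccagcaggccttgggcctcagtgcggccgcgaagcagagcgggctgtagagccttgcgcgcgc
PLK1 (chr16:23678729-23678888, plus strand): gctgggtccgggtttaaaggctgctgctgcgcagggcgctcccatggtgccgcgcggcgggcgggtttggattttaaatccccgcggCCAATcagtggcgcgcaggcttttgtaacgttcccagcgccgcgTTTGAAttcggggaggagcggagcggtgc
CCNB1 (chr5:69166990-69167149, plus strand): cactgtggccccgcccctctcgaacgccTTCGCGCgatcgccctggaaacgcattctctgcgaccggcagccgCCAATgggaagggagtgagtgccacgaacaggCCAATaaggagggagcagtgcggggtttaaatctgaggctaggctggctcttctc
CENPF (chr1:214603035-214603194, plus strand): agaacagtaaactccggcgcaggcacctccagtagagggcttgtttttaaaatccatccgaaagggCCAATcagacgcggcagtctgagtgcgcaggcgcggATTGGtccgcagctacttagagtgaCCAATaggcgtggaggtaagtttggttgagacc

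In the full windows, which run from 250 bases before to 50 after the start, SKP2 held no match to any of these motifs. PLK1 held the CHR letters at positions -29 to -24 from the start and 1 CCAAT. CCNB1 held 2 CCAAT and 1 match to TTCGCGC at -132 to -126. CENPF held 4 CCAAT, and its CHR letters lie after the start, at 41 to 46. CKS1B held 5 CCAAT and the CHR letters at -30 to -25. The start sites of both AURKB windows lie inside the gene as annotated, and each held 1 CCAAT. Of the 4 CDC25B windows, which belong to different annotated starts, 1 held the CHR variant at -38 to -33 and 1 CCAAT, another held 1 CCAAT, and a further one held 2 matches to TTCCCGC. No window of these genes held TAAACA. Among all 35116 promoter windows of this length, 15.2% held TTTGAA, 1.45% TTCGAA, 34.6% CCAAT, 12.3% TAAACA and 13.0% at least 1 of the E2F cores. FOXM1 has no entry in this promoter table. A match is a description of letters and no evidence of binding. Forms of the CHR other than TTTGAA and TTCGAA were not searched, so a window without a match may hold another form.

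The values are log2 expression values, and the array medians lay between 6.95 and 7.06. The array names in the labels divide the arrays into set 1 (replicates 1 to 3 of both treatments) and set 2 (replicates 4 and 5 of both). DMSO replicate 1 stood apart, with the smallest interquartile range (3.18 against 3.32 to 3.68 on the other 9 arrays) and the lowest mean correlation with the other arrays (0.963 against 0.979 to 0.984). Results that rest on it are given with and without it. All 8 osteoblast and mesenchymal markers had a single-symbol probe set, and their mean lay at 8.81 to 9.22 over the 10 arrays. VIM, SPARC and COL1A1 were at the 97.5th to 98.0th percentile of brightness, while COL1A2, ALPL and TWIST1 lay below the median. The 5 measured blood cell markers had a mean of 4.78 to 5.43 and the 5 epithelial markers 5.71 to 6.36. The probe sets of FOXM1 and its 6 measured targets were brighter than 86.2% to 97.5% of all probe sets. Whether the brightest of them come near the upper limit of the arrays was not tested.

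After 4 h of PD0332991, the log2 fold changes of FOXM1 and its measured targets lay between -0.27 for SKP2 and 0.13 for CENPF. None of the 7 genes passed limma's test over all probe sets (adjusted p under 0.05), which called 0.0409% of the 21980 probe sets as lower and 0.00910% as higher. At an unadjusted p under 0.05, 2 of the 7 were lower, SKP2 and AURKB, against 2.76% of all probe sets. The same 2 genes were lower on all 5 treated arrays than on all 5 DMSO arrays, an order found in 0.560% of all probe sets. Of the 7 genes 5 had negative and 2 had positive log2 fold changes, with a median of -0.14, beside 7870 negative and 6362 positive among all genes and a median of -0.02. Earlier results of these data were known when the genes were chosen, so these counts describe them and carry no test of the set. In whole cultures, fewer cells in a phase of the cycle and less mRNA per cell cannot be told apart.

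**Figure D1:**
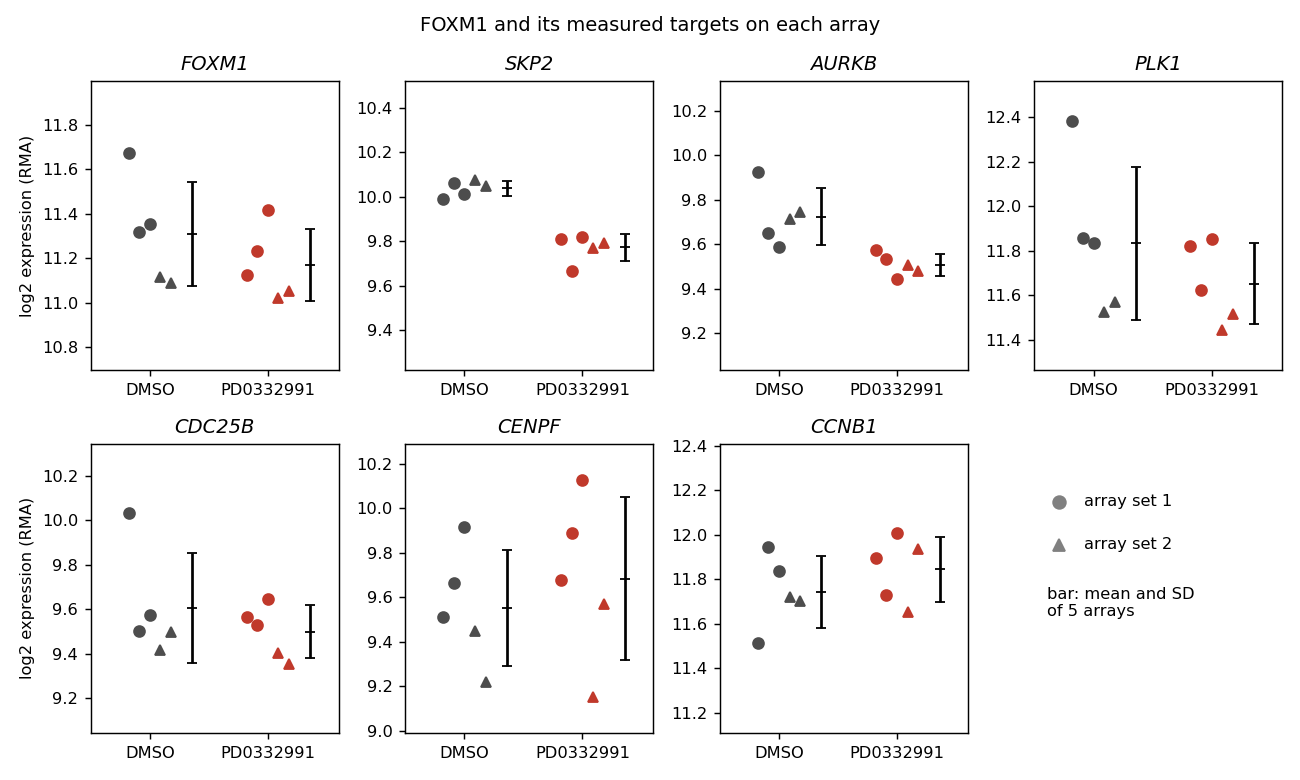
Log2 expression (y axis) of FOXM1 and its 6 measured targets on each array, by treatment (x axis), with circles for array set 1, triangles for array set 2 and bars for mean and SD of 5 arrays. The SKP2 and AURKB groups do not overlap, the other 5 genes overlap, and the first DMSO circle (replicate 1) stands above its group for FOXM1, PLK1 and CDC25B and below it for CCNB1.

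FOXM1 itself measured 11.67, 11.32, 11.36, 11.11 and 11.09 on DMSO replicates 1 to 5. On PD0332991 replicates 1 to 5 it measured 11.12, 11.23, 11.42, 11.02 and 11.05. The groups overlapped, and the 3 highest DMSO values and the 3 highest treated values were all in array set 1. The mean was 11.31 ± 0.23 in DMSO and 11.17 ± 0.16 after treatment (SD, n = 5), a log2 fold change of -0.14 ± 0.10 (SE, limma adjusted p = 1.00). The 95% confidence interval of -0.37 to 0.09 holds anything from a 1.29-fold decrease to a 1.06-fold increase of the transcript. Without DMSO replicate 1 the log2 fold change was -0.07 (limma adjusted p = 1.00).

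SKP2 and CKS1B serve the same step: SKP2 is the substrate receptor of an SCF ubiquitin ligase, and CKS1B helps it to bind phosphorylated p27, a CDK inhibitor that is then degraded. SKP2 measured 9.99, 10.06, 10.01, 10.07 and 10.05 on DMSO replicates 1 to 5, and 9.81, 9.66, 9.82, 9.77 and 9.79 on PD0332991 replicates 1 to 5. Every treated array was below every DMSO array, and the groups were separated by more than the SD within either one. The mean was 10.04 ± 0.04 in DMSO and 9.77 ± 0.06 after treatment (SD, n = 5). The log2 fold change was -0.27 ± 0.08 (SE), which is 1.20-fold lower, with a 95% confidence interval of 1.06 to 1.36-fold. It ranked 208 of 21980 by p and did not pass (limma adjusted p = 0.782). Without DMSO replicate 1 the log2 fold change was -0.28 (limma adjusted p = 0.371). It was -0.26 in array set 1 and -0.28 in array set 2, and over all 19 alternatives that tested it the value lay between -0.28 and -0.24, with limma adjusted p from 0.171 to 1.00.

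AURKB encodes the Aurora B kinase, the enzyme of the chromosomal passenger complex that corrects the attachment of chromosomes to the spindle. It measured 9.93, 9.65, 9.59, 9.72 and 9.75 on DMSO replicates 1 to 5 and 9.58, 9.54, 9.44, 9.51 and 9.48 on PD0332991 replicates 1 to 5. The groups did not overlap, but DMSO replicate 3 and PD0332991 replicate 1 almost touched. The mean was 9.73 ± 0.13 in DMSO and 9.51 ± 0.05 after treatment (SD, n = 5). The log2 fold change was -0.22 ± 0.09 (SE, 95% confidence interval -0.42 to -0.01, limma adjusted p = 1.00), and -0.16 without DMSO replicate 1 (limma adjusted p = 0.851). It was -0.20 in array set 1 and -0.24 in array set 2.

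PLK1 and CDC25B drive entry into mitosis. PLK1 encodes a kinase that acts on centrosomes, kinetochores and on FOXM1 itself, and CDC25B a phosphatase that activates cyclin B-CDK1. PLK1 measured 12.38, 11.86, 11.83, 11.52 and 11.57 on DMSO replicates 1 to 5 and 11.82, 11.62, 11.85, 11.44 and 11.52 on PD0332991 replicates 1 to 5. DMSO replicate 1 was the highest array by far, and the other 9 arrays overlapped between treatments. The log2 fold change was -0.18 ± 0.12 (SE, 95% confidence interval -0.46 to 0.09, limma adjusted p = 1.00), and -0.07 without DMSO replicate 1 (limma adjusted p = 1.00). CDC25B measured 10.03, 9.50, 9.57, 9.42 and 9.50 on DMSO replicates 1 to 5 and 9.56, 9.53, 9.65, 9.40 and 9.35 on PD0332991 replicates 1 to 5. Again DMSO replicate 1 was highest and the rest overlapped. The log2 fold change was -0.10 ± 0.11 (SE, 95% confidence interval -0.36 to 0.15, limma adjusted p = 1.00), and -0.01 without DMSO replicate 1.

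CCNB1 and CENPF had positive values. CCNB1 encodes cyclin B1, the partner of CDK1 in mitosis, and measured 11.51, 11.94, 11.84, 11.72 and 11.70 on DMSO replicates 1 to 5 and 11.90, 11.73, 12.01, 11.65 and 11.93 on PD0332991 replicates 1 to 5. Here DMSO replicate 1 was the lowest array, the reverse of PLK1 and CDC25B. The log2 fold change was 0.10 ± 0.11 (SE, 95% confidence interval -0.15 to 0.35, limma adjusted p = 1.00), and 0.03 without DMSO replicate 1. CENPF encodes a large protein of the nuclear matrix and the outer kinetochore, and measured 9.51, 9.66, 9.92, 9.45 and 9.22 on DMSO replicates 1 to 5. On PD0332991 replicates 1 to 5 it measured 9.68, 9.89, 10.13, 9.15 and 9.57. The arrays of set 2 were low in both treatments. The log2 fold change was 0.13 ± 0.13 (SE, 95% confidence interval -0.17 to 0.43, limma adjusted p = 1.00), 0.07 without DMSO replicate 1 and 0.01 with arrays weighted by quality.

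**Figure D2:**
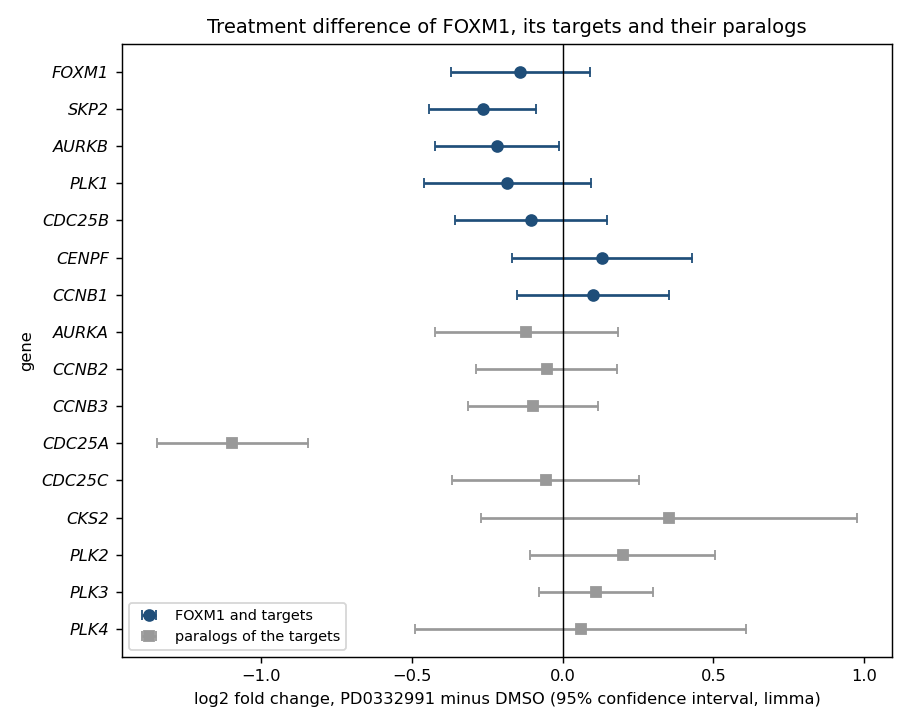
Log2 fold change of PD0332991 minus DMSO (x axis) with its 95% confidence interval from limma for FOXM1 and its measured targets (blue circles) and the measured paralogs of the targets (grey squares). CDC25A, at -1.09, lies apart from the other 15 genes, and of FOXM1 and its targets the intervals of SKP2 and AURKB alone do not reach 0.

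No dependence of the treatment difference on array set was detectable for these genes. The interaction term of limma called 0 of 21980 probe sets (0%), with 562 at an unadjusted p under 0.05 and a smallest adjusted p of 0.840. For FOXM1 the change was -0.19 in set 1 and -0.06 in set 2, and the interval of the difference ran from -0.38 to 0.63. The array sets themselves differed in level. FOXM1 was lower in set 2 by 0.28 ± 0.11 (SE), with set means of 11.35 and 11.07, PLK1 was lower by 0.38 ± 0.13 and CENPF by 0.45 ± 0.14, while SKP2 (0.03) and AURKB (-0.01) had nearly the same level in both. None of the 7 genes passed for array set with all 10 arrays (limma adjusted p = 0.106 for CENPF, the smallest; 3.53% of probe sets called). Without DMSO replicate 1, CENPF passed (-0.50, limma adjusted p = 0.0491), beside 8.21% of probe sets called.

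Paralogs of AURKB, PLK1, CCNB1, CDC25B and CKS1B, which share their protein family but not always their regulation, were compared in the same fit. That fit called 0.0409% of all probe sets lower and 0.00910% higher. Of 9 measured paralogs 1 passed, CDC25A, whose phosphatase acts on CDK2 at the G1/S transition and whose gene is an E2F target. It fell from 8.92 ± 0.12 to 7.83 ± 0.32 (SD, n = 5), a log2 fold change of -1.09 with a 95% confidence interval of -1.35 to -0.84 (limma adjusted p = 0.00911), which does not overlap the interval of CDC25B. With 1 array left out its log2 fold change stayed between -1.17 and -1.04, and the call held in 5 of 10 fits. It was lost without DMSO replicate 4 or 5 or PD0332991 replicate 1, 4 or 5, at limma adjusted p of up to 0.0590. CDC25C, which acts at mitosis, had -0.06. AURKA, the Aurora kinase of the spindle poles, had -0.12, CCNB2 -0.05 and the dim CCNB3 -0.10. PLK2, PLK3 and PLK4 had 0.20, 0.11 and 0.06, and CKS2, the close relative of the unmeasured CKS1B, had 0.35 ± 0.28 (SE). None of these 8 passed (limma adjusted p = 1.00 for each).

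Further G2/M genes described as targets of FOXM1 and MuvB showed no call either, beside 0.0409% of all probe sets called lower and 0.00910% higher. Of 40 listed genes 34 were measured, 19 of them lower and 15 higher. Their median log2 fold change was -0.02, beside -0.02 over all genes. The median lay between -0.09 and 0.03 over the alternatives and was positive when set 1 was taken alone or when PD0332991 replicate 4 was left out. At an unadjusted p under 0.05, 2 were lower and 0 higher, beside 606 lower and 311 higher of all 21980 probe sets. The smallest p belonged to TROAP, a spindle protein, at -0.27 ± 0.10 and GTSE1, a G2 and S phase protein that restrains p53, at -0.22 ± 0.10. CDCA3, which helps to degrade the WEE1 kinase, had -0.23, and UBE2C, the ubiquitin-conjugating enzyme of the anaphase-promoting complex, had -0.22. Treated and DMSO arrays overlapped for all 34 genes. Among all 21980 probe sets, 0.560% had every treated array below every DMSO array, and 47 had the reverse order.

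Partners and opponents of the mitotic kinases gave 10 lower and 6 higher of 16 measured, with a median of -0.14. Of these, 0 were called by limma, beside 0.0409% of all probe sets called lower and 0.00910% higher. Of the 16, 3 were lower and 0 higher at an unadjusted p under 0.05, beside 2.76% of all probe sets lower. Without 1 array that median ran from -0.17 (DMSO replicate 1) to -0.02 (PD0332991 replicate 4), with -0.05 to -0.08 without DMSO replicate 2 or 3 or PD0332991 replicate 2. GMNN, the inhibitor of the licensing factor CDT1, had -0.59 ± 0.13 (SE, limma adjusted p = 0.408). WEE1 and PKMYT1, the kinases that hold CDK1 inactive and that the CDC25 phosphatases oppose, had -0.33 ± 0.09 (limma adjusted p = 0.635) and -0.35 ± 0.11 (limma adjusted p = 0.929). INCENP, the scaffold that activates Aurora B, had -0.18 ± 0.09 (limma adjusted p = 1.00).

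Among the regulators and partners of FOXM1, 21 of 25 were measured, 12 lower and 9 higher, with a median of -0.06. The median was -0.12 with array weights, and without 1 array it ran from -0.08 (PD0332991 replicate 3) to -0.01 (DMSO replicate 2), with -0.03 without DMSO replicate 3 and -0.04 without PD0332991 replicate 2. The called genes were CCNE2 and CCNE1, whose E-type cyclins activate CDK2, beside 0.0409% of all probe sets called lower and 0.00910% higher. CCNE2 fell by 1.89 and CCNE1 by 0.95 on the log2 scale (limma adjusted p = 0.00911 for both). Without DMSO replicate 4 or 5 or PD0332991 replicate 1, 4 or 5 the adjusted p of both reached up to 0.0590. CCND2 and CCND1, D-type cyclins and so partners of the inhibited kinases, were named with their values known and had 0.59 ± 0.12 (limma adjusted p = 0.265) and 0.22 ± 0.10 (limma adjusted p = 1.00). CCND3, the other D-type cyclin and also named with its value known, had the opposite sign. Its log2 fold change was -0.26 ± 0.18 (SE) and did not pass. The components that carry FOXM1 to CHR promoters, named here after their values were seen, lay near 0: MYBL2, which encodes B-MYB, had -0.06 ± 0.08, LIN9 0.04 ± 0.17 and LIN54, the CHR-binding subunit, 0.08 ± 0.16. FZR1, an activator of the anaphase-promoting complex that marks FOXM1 for degradation, had -0.14 ± 0.11, and was likewise named after its value was seen.

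The genes of SKP2's own ligase and substrates were evenly divided in sign. Of 12 measured 6 had negative and 6 positive values. The median of 0.01 was negative in 8 of 20 alternatives. limma called 0, beside 0.0409% of all probe sets called lower and 0.00910% higher. At an unadjusted p under 0.05, 2 were lower and 0 higher, beside 2.76% of all probe sets lower. These 2 encode licensing proteins that the ligase targets and are also E2F targets. CDT1 had -0.94 ± 0.17 (SE, limma adjusted p = 0.207) and ORC1 -0.57 ± 0.09 (limma adjusted p = 0.117), and for both every treated array was below every DMSO array. CDKN1A, the gene of the CDK inhibitor p21, had -0.24 ± 0.11, and CDKN1B, the gene of p27, had -0.28 ± 0.19 (the latter was picked with its value known). COPS5, a subunit of the COP9 signalosome that recycles such ligases, had 0.22 ± 0.14. These last 3 had limma adjusted p of 1.00.

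Redox, repair and tissue remodelling genes ascribed to FOXM1 were split, with 9 lower and 7 higher of 16 measured and a median of -0.03. Of these, limma called 0, beside 0.0409% of all probe sets called lower and 0.00910% higher. Of the 16, 4 were lower and 1 higher at an unadjusted p under 0.05, beside 606 lower and 311 higher of all 21980 probe sets. Without 1 array this median lay between -0.06 (without DMSO replicate 3 or PD0332991 replicate 5) and -0.01 (without PD0332991 replicate 2), it was -0.02 without DMSO replicate 1, and in array set 2 alone it was -0.0016. The lower members with the smallest p serve DNA replication, repair or the maintenance of methylation and are also known E2F targets: the exonuclease gene EXO1 had -0.75 ± 0.12 (SE, limma adjusted p = 0.141), the clamp loader gene RFC4 -0.40 ± 0.11 and the methylation maintenance factor gene UHRF1 -0.46 ± 0.13 (limma adjusted p = 0.652 for both). The part of E2F in these values was not tested. SESN2, a stress-induced sestrin, had 0.21 ± 0.08 (limma adjusted p = 1.00). For comparison, 27 of the 28 measured E2F and G1/S genes had negative values, beside 55.3% of all genes. This list too was chosen with earlier results of these data known. The median of its genes was -0.35, and 7 were called: E2F2, CCNE1, CDC25A, CCNE2, MYB, DTL and MCM10. Over all probe sets 0.0409% were called lower. With array set 1 or array set 2 alone 0 of these 7 passed, with limma adjusted p of 0.612 at the least in set 1 and 0.319 in set 2. E2F2 kept its call in all 10 fits that left out 1 array. CCNE1, CCNE2 and CDC25A lost it in 5, and MYB, DTL and MCM10 in the 9 other than the one without DMSO replicate 1, with a limma adjusted p of up to 0.265. This list overlaps those above. Of 13 listed reference genes 9 were measured, 3 lower and 6 higher. They had a median of 0.12, which was 0.07 after quantile normalization, -0.04 with array weights and -0.02 without DMSO replicate 1. At an unadjusted p under 0.05, 1 of the 9 was lower, beside 2.76% of all probe sets. It was TBP, at -0.33 ± 0.11 (SE, limma adjusted p = 0.893). PPIA, ACTB and GUSB, next by p, had 0.22, 0.12 and -0.11.

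**Figure D3:**
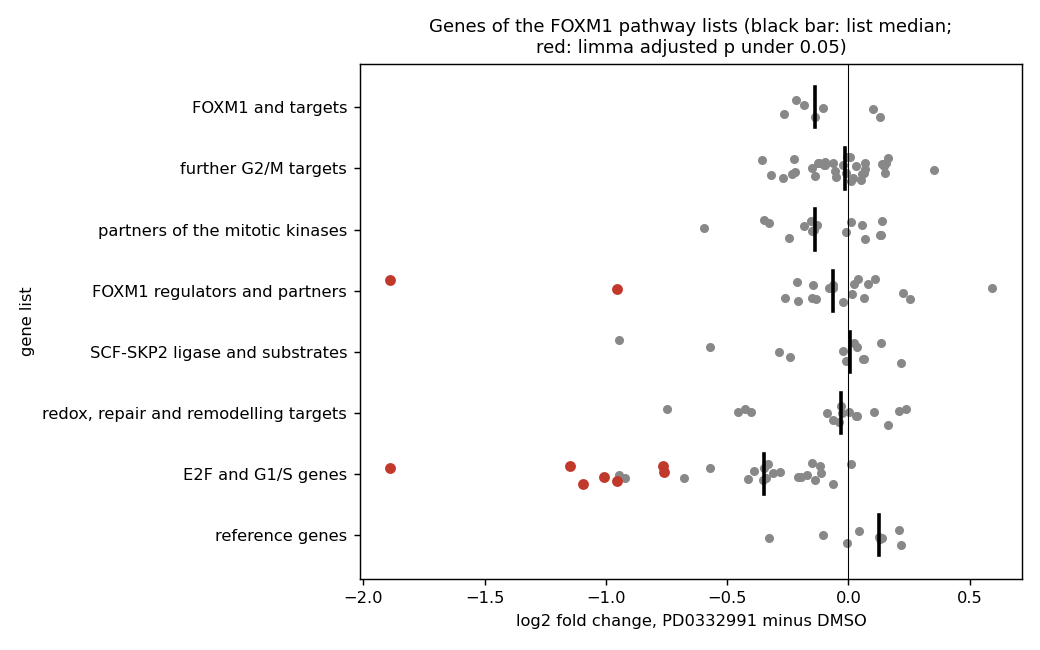
Log2 fold change of PD0332991 minus DMSO (x axis) of every measured gene in each list (y axis), with a black bar at the list median and red points for genes with a limma adjusted p under 0.05. FOXM1 and its targets lie between -0.27 and 0.13, and the E2F and G1/S genes extend to -1.89.

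Whether arrays with more FOXM1 signal also had more signal of its targets was asked over the 10 arrays, after centring within array set (6 relations, permutation tests, 2-sided). PLK1 followed FOXM1 with Pearson r = 0.85 (permutation p = 0.0115, adjusted p = 0.0346) and Spearman rho = 0.79 (permutation p = 0.00908, adjusted p = 0.0272). CDC25B did so with r = 0.86 (permutation p = 0.00613, adjusted p = 0.0346) and rho = 0.81 (permutation p = 0.00759, adjusted p = 0.0272). Without the 2 arrays farthest from the FOXM1 median, DMSO replicate 1 and PD0332991 replicate 1, r was 0.78 for PLK1 and 0.64 for CDC25B. Without DMSO replicate 1 alone it was 0.42 and 0.41 (permutation p = 0.260 and 0.276), so neither passed without that array while PD0332991 replicate 1 stayed in. Within array set 1 r was 0.86 (permutation p = 0.0381) and 0.87 (permutation p = 0.0388) over 6 arrays, DMSO replicate 1 among them, and set 2 has too few arrays for a value.

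The remaining targets had no relation with FOXM1 past the threshold. For AURKB r was 0.65 and rho 0.36 (permutation p = 0.0531 and 0.312, adjusted p = 0.106 and 0.467), for SKP2 0.46 and 0.48 (permutation p = 0.193 and 0.165, adjusted p = 0.231 and 0.330), for CENPF -0.16 and 0.12 (permutation p = 0.673 and 0.755, adjusted p = 0.673 and 0.906) and for CCNB1 -0.51 and -0.03 (permutation p = 0.128 and 0.947, adjusted p = 0.192 and 0.947). Without DMSO replicate 1 r was 0.0448 for AURKB (permutation p = 0.909), 0.47 for SKP2, 0.56 for CENPF and 0.28 for CCNB1. Without the same 2 arrays as above r was 0.20 for AURKB, 0.55 for SKP2, 0.36 for CENPF and 0.42 for CCNB1. Within array set 1 it was 0.69 for AURKB (permutation p = 0.149), 0.47 for SKP2 (permutation p = 0.364), -0.24 for CENPF (permutation p = 0.664) and -0.58 for CCNB1 (permutation p = 0.220). DMSO replicate 1 exceeded the mean of DMSO replicates 2 and 3 by 0.33 for FOXM1, 0.54 for PLK1 and 0.50 for CDC25B, and lay below it by 0.28 for CENPF and 0.38 for CCNB1, where the SD of that difference over all probe sets was 0.62.

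**Figure D4:**
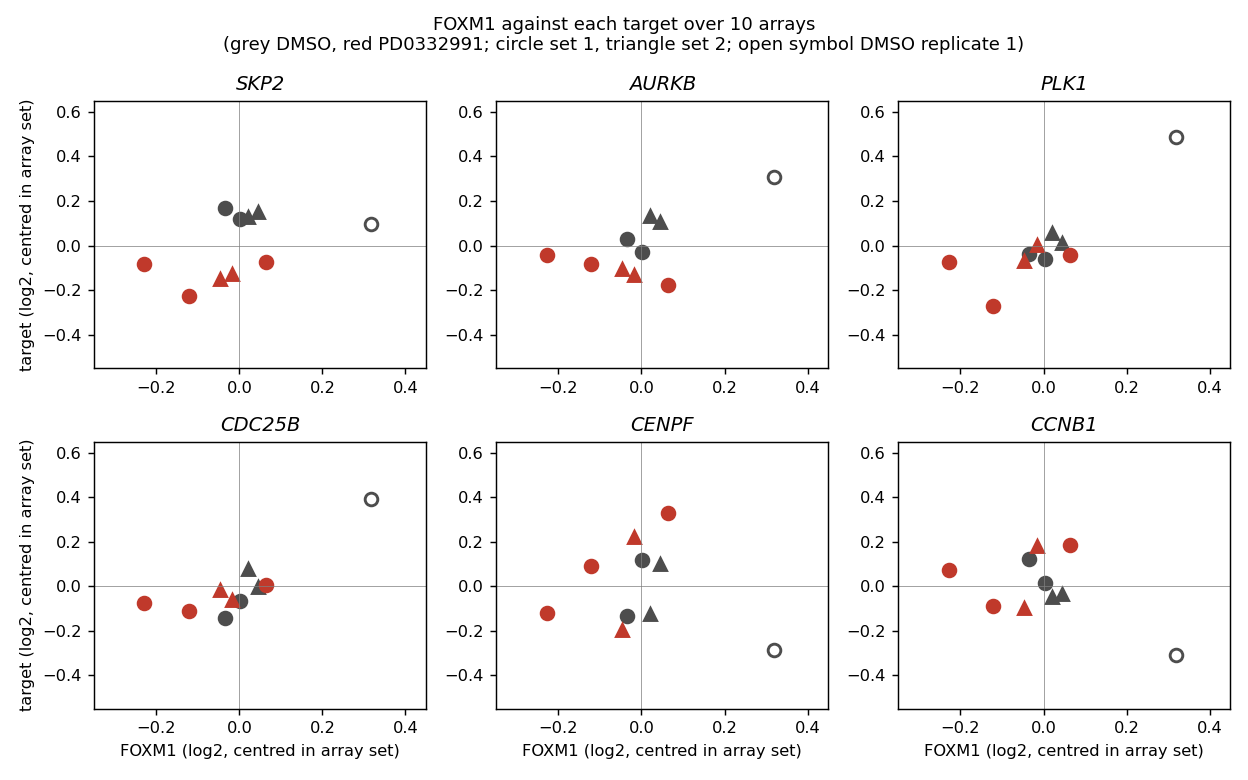
Each target (y axis) against FOXM1 (x axis) on the 10 arrays, both as log2 expression centred within array set, with DMSO in grey, PD0332991 in red, circles for set 1 and triangles for set 2. The open circle is DMSO replicate 1, which lies far right and high for PLK1 and CDC25B and far right and low for CENPF and CCNB1; SKP2 divides by treatment.

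Among 7654 other genes brighter than the median probe set, those most like FOXM1 over the same 10 centred arrays were PEBP1 (r = 0.98), an inhibitor of RAF kinase signalling, and GLI3 (0.96), a transcription factor of the hedgehog pathway. They were followed by NUMA1 (0.96), a protein of the spindle poles, BAIAP2L1 (0.95), an actin regulator, and TOMM40 (0.95), the channel of the outer mitochondrial membrane. These genes were picked for their r, which was 0.94, 0.88, 0.87, 0.84 and 0.84 in the same order without DMSO replicate 1. CDC25B and PLK1 ranked 151 and 154, AURKB 930, SKP2 1667, CENPF 4110 and CCNB1 5717, and the median gene had r = -0.09. These ranks are with DMSO replicate 1 and were not taken without it. Without that array r was 0.41 for CDC25B, 0.42 for PLK1 and 0.0448 for AURKB. It was 0.47 for SKP2, 0.56 for CENPF and 0.28 for CCNB1.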

How the data were processed

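Total RNA of U2OS cells was labelled as single-stranded cDNA and hybridised to Affymetrix exon arrays, per the labels' protocols. The authors deposited log2 values, 1 per gene-level probe set and array; per the submitters' processing notes RMA, Partek and hg18 were used, with versions and parameters not given in the sources used here. RMA compresses fold changes of dim genes. No coordinates of the array's genes are given, since the gene table is of another build. Of 21980 probe sets 14432 carry 1 symbol through the platform annotation.

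Treatment was tested on these values by a linear model with array set as covariate (limma 3.58.1, R 4.3.3, moderated by eBayes, 2-sided), with Benjamini-Hochberg adjustment over all 21980 probe sets, a threshold of 0.05 and 95% confidence intervals. The number of arrays limits the precision. Correlations used 100000 resamples. The procedure was tested on simulated data with independent noise and with changes larger than those of the measured genes of the set. That test does not show whether changes as small as theirs would be detected. Gene lists are described by counts and medians. The genes and lists were chosen with earlier results of these data known. Named were the 8 genes of the set, every paralog, and of each list the called genes or else up to 4 with the smallest p; others are marked. The 5 genes most like FOXM1 were ranked by r. Alternatives changed the model, normalization, filter, variance prior, weights, probe set choice and arrays. Same-numbered replicates are not paired by the labels. Their deviations from the treatment mean correlated at 0.04 to 0.54, and at -0.05 to 0.40 when centred within array set and treatment, highest for replicate 3. In set 2 each treatment has replicates 4 and 5 alone, so this centring gives both numbers the same r of -0.05 by construction. As r was not above 0.1 in every pair, number was no block in the main model. A fit with number as block is given below. Plots were made in Python 3.11.15 (Matplotlib 3.10.9).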

Additional observations from a re-analysis of the deposited data

Results flagged for a closer look

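In the DMSO group of CDC25B, replicate 1 stood apart from the other arrays: its value of 10.03 was separated from the next highest, 9.57, by 0.745 of the whole range of the 5 arrays, above the limit of 0.71 for 5 values (Dixon's test). Of 14 groups of arrays checked over the 7 genes this was the 1 marked, and chance marks about 1 in 20. The same array had the smallest interquartile range of all 10, 3.18. Without it the log2 fold change of CDC25B was -0.01 in place of -0.10. The part of the array in the result beyond these values was not tested.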

How the results depend on the processing

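None of FOXM1 and its 6 measured targets was called, and none changed sign, in any of the 19 alternatives to their fit, 10 of which left out 1 array; their median ran from -0.19 to -0.07. With replicate number as a replicate block in place of array set, the call count over all probe sets was 1 lower and 1 higher against 9 and 2, 0 of the 7 called E2F and G1/S genes passed (limma adjusted p = 0.0607 to 0.196), and SKP2 had a limma adjusted p of 0.811. Higher calls were also 1 without array set in the model or with array medians centred. Array weights gave 50 lower and 13 higher calls, and each array set alone 0 and 0. Leaving out 1 array gave 1 to 20 lower and 1 to 3 higher calls. The E2F and G1/S median was -0.44 with array weights and -0.43 to -0.32 without 1 array. The paralog median of -0.05 was 0.10 in array set 1 alone and -0.10 to 0.02 without 1 array. The causes were not tested.

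The correlation of FOXM1 with AURKB reached r = 0.69 after quantile normalization (permutation p = 0.0416). Centring within array set and treatment turned SKP2 to -0.12 and CENPF to 0.0933. With this centring, and with DMSO replicate 1 kept, r was 0.79 for PLK1, 0.85 for CDC25B, 0.49 for AURKB and -0.41 for CCNB1. Without DMSO replicate 1, an alternative chosen after seeing the data, r was 0.42 for PLK1, 0.41 for CDC25B, 0.56 for CENPF, 0.28 for CCNB1 and 0.0448 for AURKB (permutation p = 0.909), and 1805 probe sets in place of 776 differed between array sets. Renormalization moved the median of all probe sets by 0.02 at most. Signal over background was not used here, so dim genes such as CCNB3 are known by their level alone.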
